A study of Mus musculus with 10 samples.

Results

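The genes described here are 35 listed antioxidant and glutathione defence genes, namely the transcription factor NRF2 (Nfe2l2) and its inhibitor Keap1, NRF2 targets, and the glutathione, superoxide dismutase, catalase, peroxiredoxin, thioredoxin and glutaredoxin genes. They were found by symbol among the 24972 genes of each gene table, and 35 of 35 passed the filter on low counts, which 14378 genes passed in all. The libraries were total RNA of cortex, each from 1 male C57BL/6 mouse aged 2.5 months, 5 with the genotype Atad3 nKO and 5 control littermates, taken after perfusion with ice-cold PBS. Atad3a encodes an ATPase of the mitochondrial inner membrane. The labels neither spell out nKO nor name the deleted exons, a driver line or the cells in which the gene is lost, and cortex is a mixture of neurons, glia and vessel cells, so fewer cells of a type and less RNA per cell cannot be told apart.

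Cells remove hydrogen peroxide and lipid peroxides with enzymes that draw their electrons from glutathione or from thioredoxin, and both are kept reduced by NADPH. Superoxide, much of it made by the respiratory chain, is first turned into hydrogen peroxide by superoxide dismutases. Mitochondria hold their own set of these enzymes beside the cytosolic set, for example Sod2 beside Sod1 and Prdx3 beside Prdx1. NRF2 is held back by KEAP1 and degraded; when electrophiles or oxidants modify KEAP1, NRF2 accumulates, binds antioxidant response elements and raises the transcription of genes such as Nqo1, Hmox1, Gclm, Srxn1 and Txnrd1. In brain, much of the glutathione supply comes from astrocytes.

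To show where NRF2 could act on these genes, promoters of the RefSeq annotation (GRCm38.p6, 250 bases before to 50 bases after the start) were searched on both strands for the antioxidant response element core TGACNNNGC. Of the 29 members with a promoter in that table, 9 (31.0%) held a match, and among all 27025 genes with a promoter 3781 (13.99%) did. Since the list includes genes chosen as NRF2 targets, these shares are not an independent comparison. The 9 were Nfe2l2, Gclm, Sod1, Prdx1, Txnrd1, Srxn1, G6pdx, Gstm5 and Mgst1, and Hmox1, Gclc, Gsr, Sod3, Prdx6 and Gsta4 had no entry. A match describes these letters and is not a binding site, and sites outside the searched stretch are missed. The windows of 41 bases shown here, read 5′ to 3′ on the gene's strand, belong to 5 genes whose values are given further on, with the core in capitals. In Gclm, Prdx1, Txnrd1 and G6pdx the core lies on the opposite strand, so the capitals are its reverse complement.
Gclm: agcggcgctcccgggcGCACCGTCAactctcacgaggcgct
Prdx1: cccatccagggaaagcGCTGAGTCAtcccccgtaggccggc
Txnrd1: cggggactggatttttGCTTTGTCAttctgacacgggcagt
G6pdx: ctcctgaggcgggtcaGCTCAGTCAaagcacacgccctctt
Gstm5: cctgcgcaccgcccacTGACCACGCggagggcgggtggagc
They lie at chr3:122245407-122245447 for Gclm, chr4:116685450-116685490 for Prdx1, chr10:82859098-82859138 for Txnrd1, chrX:74428913-74428953 for G6pdx and chr3:107895796-107895836 for Gstm5. G6pdx is on the minus strand and the other 4 on the plus strand. The 9 genes with a match had log2 fold changes of nKO over control from -0.17 to 0.18, and 4 of the 9 were below 0.

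Library depth was 14812639 to 19097795 estimated counts in nKO and 16768382 to 24161361 in controls. The targeted gene Atad3a averaged 11.5 ± 1.97 CPM (counts scaled to a common library total by TMM) in nKO and 23.7 ± 1.87 CPM in controls (SD, n = 5 each), a log2 fold change of -1.04 (SE 0.12, adjusted p = 0.00634, edgeR's quasi-likelihood test), and the groups did not overlap. Libraries nKO 4 and control 1 stood at the ends of the first principal component (37.5% of the variance), and the members in them are described further on. Markers of cortical excitatory neurons, such as Slc17a7 and Tbr1, summed to 1821 to 2199 CPM in nKO and 1514 to 2287 CPM in controls. The summed astrocyte level was 5778 to 6591 CPM in nKO and 5266 to 5746 CPM in controls, although 7 of its 8 genes had log2 fold changes below 0. The sum rests mostly on Slc1a2, the main astrocyte glutamate transporter, at 4383 CPM in nKO and 3716 CPM in controls. The other 7 of the 9 lists apart from blood cells overlapped between the groups in their summed level. Blood cells are rich in Prdx2 and Cat. Their markers summed to 14.96 to 45.1 CPM in nKO and 23.3 to 72.9 CPM in controls, and Ahsp was not listed. Of the 6 tested, 5 had negative log2 fold changes with a list median of -0.86. At an unadjusted p under 0.05 there were 3, and 0 were called. Such a p was also found for 2 of 8 astrocyte and 2 of 7 inhibitory neuron markers. It was found for 1 excitatory neuron, 1 endothelial and 1 choroid plexus and meninges marker. Of all genes, 2.29% had such a p and were lower in nKO, and 3.36% were higher. The part of these cell types in the results was not tested.

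Across the 35 genes no response to the loss of Atad3a passed the test. At a 5% false discovery rate 0 of 35 members were called (edgeR's quasi-likelihood test, smallest adjusted p among members 0.820), against 0.0139% of all tested genes. At an unadjusted p under 0.05, 3 members were lower in nKO, where 2.29% of all genes were, and 0 were higher, where 3.36% of all genes were. The 3 were Mgst3, Keap1 and Gpx4, and with nKO 4 or nKO 5 left out only Mgst3 had such a p. The log2 fold changes ran from -0.36 (Mgst3) to 0.47 (Gstm1) with a median of -0.05, and 24 of 35 were negative. Over all tested genes the median was -0.01 and 52.2% were negative. Without control 3 the median of the members was -0.02, with 19 of 35 negative, and without nKO 4 and control 1 it was -0.09, with 24 negative. In 0 of 35 members did the CPM of the groups fail to overlap, against 1.38% of all genes, and in TPM (a share of the library's transcripts, which takes their length into account) this was so for 1, Gclm, against 2.56% of all genes.

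The intervals of the fold changes were narrow for most members. In 29 of 35 the 95% interval of the fold change lay within 1.5-fold in either direction, and in 34 of 35 within 2-fold; for all tested genes the 1.5-fold share was 75.7%. The exception to the 2-fold limit was Gstm1.

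**Figure D1:**
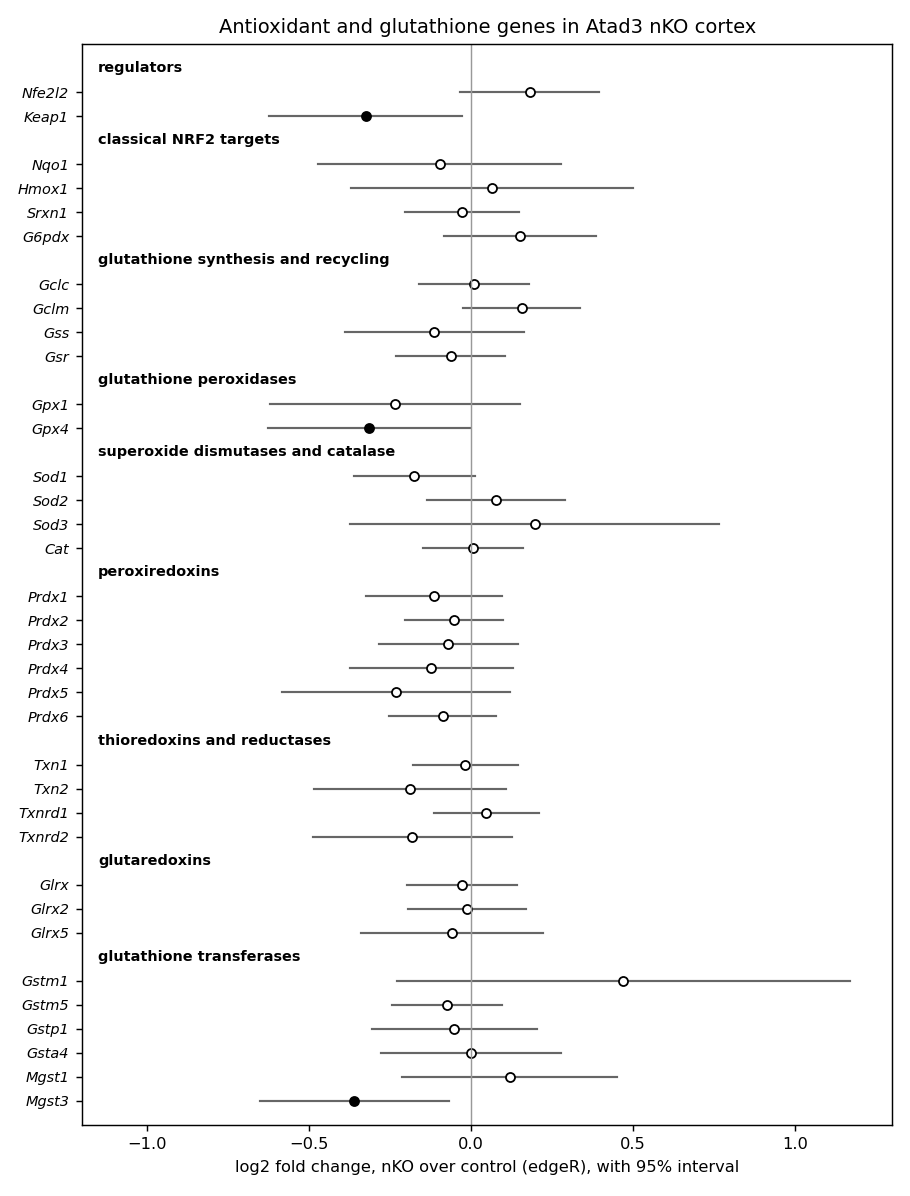
Log2 fold change of nKO over control for each of the 35 genes, grouped by role, with its 95% interval from edgeR (5 nKO and 5 control libraries). Filled points have an unadjusted p under 0.05; Mgst3, Keap1 and Gpx4 are filled, at -0.36, -0.32 and -0.31, and Gstm1 has the widest interval.

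Both regulators were expressed at moderate levels. Nfe2l2, the transcription factor itself, had 18.3, 18.5, 18.4, 20.9 and 19.4 TPM in nKO 1 to 5, against 13.7, 17.0, 15.6, 18.6 and 17.8 TPM in control 1 to 5. The groups overlapped only through control 4, and 4 of 5 controls lay below every nKO library. Its log2 fold change of 0.18 (SE 0.10, 95% interval -0.03 to 0.40) did not pass the test (edgeR unadjusted p = 0.0898, adjusted p = 0.820), and it was 0.08 without nKO 4 and control 1.

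Keap1, the adaptor that hands NRF2 to a ubiquitin ligase, had 38.1, 38.7, 37.3, 28.2 and 33.2 CPM in nKO 1 to 5, against 61.5, 38.5, 41.1, 38.3 and 40.7 CPM in control 1 to 5. Control 1 was far above the other controls and nKO 4 was the lowest library. The log2 fold change was -0.32 (SE 0.14, edgeR unadjusted p = 0.0348, adjusted p = 0.820). In TPM the spread was narrower, with 46.0, 45.2, 43.7, 42.1 and 41.3 in nKO 1 to 5 and 50.2, 49.4, 52.5, 44.9 and 47.6 in control 1 to 5. In these length-scaled levels 4 of 5 controls lay above every nKO library. Without nKO 4 and control 1 the log2 fold change of Keap1 was -0.11 (edgeR unadjusted p = 0.163). With each library's effective transcript lengths as offsets in the fit, it was -0.22 (edgeR unadjusted p = 0.00766, adjusted p = 0.469). In Gpx4, Gpx1, Prdx5, Gstp1 and Mgst3, as in Keap1, control 1 was the highest library in CPM and nKO 4 the lowest. Leaving both out moves such a fold change upward in any case. In Nfe2l2, Gclc, Gclm, Glrx2 and Mgst1 the places were reversed, and the fold change moves downward.

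The 4 genes grouped here as classical NRF2 targets lay on both sides of 0. Gclm and Txnrd1, also named above as raised by NRF2, are described with their enzyme families below, at 0.16 and 0.05. Nqo1, a quinone reductase, averaged 7.27 ± 1.31 TPM in nKO and 7.62 ± 1.38 TPM in controls (SD, n = 5 each). Hmox1, the inducible heme oxygenase, averaged 5.79 ± 0.974 TPM in nKO and 5.16 ± 1.27 TPM in controls. These are among the 3 lowest members; Hmox1 was read from 26.2 to 69.4 estimated counts per library, so its 95% interval was wide, -0.37 to 0.50 on the log2 scale. Srxn1, which repairs overoxidised peroxiredoxins, was much more abundant, at 119 ± 8.78 TPM in nKO and 117 ± 13.7 TPM in controls, with a log2 fold change of -0.03. G6pdx, which starts the pentose phosphate pathway and so supplies NADPH, had 30.2, 29.1, 31.9, 28.9 and 26.3 TPM in nKO 1 to 5, against 21.0, 26.4, 23.1, 31.8 and 25.9 TPM in control 1 to 5. The groups overlapped, and the log2 fold change was 0.15 (SE 0.11, edgeR unadjusted p = 0.185). Without control 4, the highest control, it was 0.24 (edgeR unadjusted p = 0.0255, adjusted p = 0.732).

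The 4 genes of glutathione synthesis and recycling had log2 fold changes from -0.11 to 0.16, and 0 of 4 passed the test. Gclm, the modifier subunit of the ligase that sets the rate of synthesis, had 45.3, 48.4, 45.9, 53.0 and 48.8 TPM in nKO 1 to 5, against 38.2, 45.02, 42.7, 43.2 and 43.3 TPM in control 1 to 5. The lowest nKO library lay just above the highest control in TPM, while in CPM nKO 1 and nKO 3 lay below control 2. Its log2 fold change of 0.16 (SE 0.08) had a 95% interval of -0.03 to 0.34 and did not pass the test (edgeR unadjusted p = 0.0858). It was 0.09 without nKO 4, 0.18 without nKO 1, and 0.08 without nKO 4 and control 1. Gclc, the catalytic subunit of the same ligase, averaged 59.2 ± 2.70 TPM in nKO and 57.6 ± 6.16 TPM in controls, with a log2 fold change of 0.01. Whether Gclm and Gclc differed from each other in response was not tested. Gss, which completes glutathione, averaged 11.99 ± 1.64 TPM in nKO and 12.4 ± 1.65 TPM in controls. Gsr, which reduces glutathione disulfide with NADPH, averaged 35.5 ± 2.20 TPM in nKO and 35.7 ± 2.67 TPM in controls.

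Gpx4, the glutathione peroxidase that reduces lipid peroxides in membranes and protects cells from ferroptosis, was the second most abundant member. It had 110.0, 118, 105, 77.4 and 94.1 CPM in nKO 1 to 5, against 173, 104, 125, 113 and 112 CPM in control 1 to 5. The highest value was again control 1 and the lowest nKO 4. The log2 fold change was -0.31 (SE 0.14, edgeR unadjusted p = 0.0483, adjusted p = 0.820). It was -0.10 without those 2 libraries, the highest and the lowest. With effective lengths as offsets in the fit it was -0.24 (edgeR unadjusted p = 0.0136, adjusted p = 0.485). In TPM Gpx4 averaged 467 ± 45.9 in nKO and 530.3 ± 43.3 in controls. Gpx1, the main soluble glutathione peroxidase, averaged 108 ± 13.8 TPM in nKO and 115 ± 7.77 TPM in controls. Its log2 fold change was -0.23 (SE 0.18) in all libraries, and with nKO 4 and control 1 left out it was 0.04.

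The superoxide dismutases span the widest range of levels in the set. Sod1, the cytosolic copper and zinc enzyme, was the highest member, with 592, 662, 600.2, 649 and 602 TPM in nKO 1 to 5, against 613, 679, 847, 660.4 and 607 TPM in control 1 to 5. Control 3 was the highest library, and the other 9 lay close together. The log2 fold change was -0.17 (SE 0.09, edgeR unadjusted p = 0.0653). It was -0.10 without control 3 and -0.22 without control 5 (edgeR unadjusted p = 0.0242, adjusted p = 0.890). Sod3, the secreted enzyme, was the lowest member, with 5.74, 4.37, 4.27, 4.60 and 6.14 TPM in nKO 1 to 5, against 3.78, 3.50, 2.28, 4.16 and 5.87 TPM in control 1 to 5. It was read from only 25.2 to 55.3 estimated counts per library, and its log2 fold change of 0.20 had an SE of 0.26. With 1 library left out it lay between 0.01 (without control 3) and 0.35 (without control 5), and without nKO 4 and control 1 it was 0.39. Sod2, the manganese enzyme of the mitochondrial matrix, had 162, 158, 167, 188 and 183 TPM in nKO 1 to 5, against 142, 154, 137, 191 and 176 TPM in control 1 to 5. Controls 1, 2 and 3 lay below every nKO library, and the log2 fold change was 0.08 (SE 0.10), ranging from 0.02 (without nKO 4) to 0.14 (without control 4). Cat, the peroxisomal catalase, averaged 40.9 ± 1.90 TPM in nKO and 39.4 ± 3.40 TPM in controls, with a log2 fold change of 0.01 (95% interval -0.15 to 0.16).

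The peroxiredoxins, which remove hydrogen peroxide through a reactive cysteine, were abundant, and 0 of 6 passed the test. All 6 had negative log2 fold changes, from -0.23 to -0.05 with TMM and from -0.24 to -0.06 with DESeq2 size factors or library size alone. These scalings move all genes alike. The cytosolic Prdx1 had 211, 211, 221, 221 and 213 TPM in nKO 1 to 5, against 184, 229, 278, 232 and 236 TPM in control 1 to 5. The nKO libraries were close together, inside a control range that runs out to control 1 at the low end and control 3 at the high end, and 4 of 5 controls lay above every nKO library. The log2 fold change of Prdx1 was -0.11 (SE 0.10, edgeR unadjusted p = 0.261), -0.03 without control 3 and -0.19 without control 1. The mitochondrial Prdx3 had 107, 102, 109.7, 121 and 109 TPM in nKO 1 to 5, against 91.9, 105, 137, 117 and 116 TPM in control 1 to 5, and a log2 fold change of -0.07. Prdx5, found in mitochondria, peroxisomes and cytosol, averaged 276 ± 26.4 TPM in nKO and 292 ± 11.9 TPM in controls. Its log2 fold change was -0.23 in all libraries and 0.02 without nKO 4 and control 1. Prdx2, the abundant cytosolic form of neurons, averaged 263 ± 10.2 TPM in nKO and 264 ± 16.3 TPM in controls. Prdx6, the 1-cysteine form, averaged 162 ± 7.75 TPM in nKO and 169 ± 18.6 TPM in controls. Prdx4, the form of the endoplasmic reticulum, averaged 43.1 ± 2.29 TPM in nKO and 45.4 ± 8.31 TPM in controls. Its log2 fold change was -0.12, with -0.02 without control 3 and -0.18 without control 2.

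The thioredoxins and their NADPH-dependent reductases, which keep the peroxiredoxins reduced, come as a cytosolic and a mitochondrial set. Txn1 had 111, 125, 114, 115 and 119.7 TPM in nKO 1 to 5, against 93.4, 116, 124, 120.1 and 122 TPM in control 1 to 5, and its mitochondrial counterpart Txn2 had 67.9, 76.1, 76.9, 71.4 and 61.9 TPM in nKO 1 to 5, against 69.5, 61.2, 101, 68.1 and 77.1 TPM in control 1 to 5. Both overlapped between the groups, with log2 fold changes of -0.02 (SE 0.08) for Txn1 and -0.19 (SE 0.14) for Txn2. With a library left out Txn2 lay between -0.27 (without control 2) and -0.10 (without control 3). Txnrd1, the cytosolic reductase and an NRF2 target, had 46.0, 45.6, 42.3, 44.6 and 48.9 TPM in nKO 1 to 5, against 35.9, 41.1, 42.9, 47.3 and 45.3 TPM in control 1 to 5. The mitochondrial reductase Txnrd2 had 14.8, 12.8, 13.0, 11.7 and 14.4 TPM in nKO 1 to 5, against 13.4, 11.7, 18.0, 12.8 and 15.4 TPM in control 1 to 5. These overlapped too, at log2 fold changes of 0.05 (SE 0.08) for Txnrd1 and -0.18 (SE 0.14) for Txnrd2. With a library left out Txnrd2 lay between -0.26 (without control 2) and -0.11 (without control 3, and likewise without nKO 4).

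Glutaredoxins remove glutathione from protein cysteines, and their 3 genes had log2 fold changes between -0.06 and -0.01, of which that of Glrx5 was 0.01 with effective length offsets. Glrx, the cytosolic form, had 57.2, 54.8, 60.8, 58.9 and 60.6 TPM in nKO 1 to 5, against 51.3, 58.5, 62.5, 60.7 and 60.8 TPM in control 1 to 5. Glrx2, the mitochondrial form, had 36.0, 35.8, 41.8, 40.3 and 38.9 TPM in nKO 1 to 5, against 32.6, 40.8, 39.9, 36.5 and 41.1 TPM in control 1 to 5. The ranges of both genes largely coincide, and the lowest library of each was control 1. Glrx5, which acts in mitochondrial iron-sulfur cluster assembly, averaged 67.3 ± 7.84 TPM in nKO and 64.4 ± 4.48 TPM in controls.

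Of the glutathione transferases, Mgst3 had the lowest unadjusted p of all members. Mgst3, a microsomal transferase that also reduces lipid peroxides, had 44.0, 41.9, 48.7, 32.5 and 43.3 CPM in nKO 1 to 5, against 70.6, 41.9, 55.4, 49.8 and 52.2 CPM in control 1 to 5. The groups overlapped only through control 2. Relative to controls this is a log2 fold change of -0.36 (SE 0.14, edgeR unadjusted p = 0.0194, adjusted p = 0.820) with a 95% interval of -0.65 to -0.07. With nKO 4 and control 1 left out it is -0.17. With effective lengths as offsets in the fit it is -0.32 (edgeR unadjusted p = 0.00522, adjusted p = 0.441). In TPM it averaged 276 ± 23.0 in nKO and 332 ± 38.5 in controls. Gstm5 averaged 425 ± 24.0 TPM in nKO and 442 ± 42.7 TPM in controls, and Gstp1, the pi-class enzyme, 313 ± 33.4 TPM in nKO and 308 ± 13.9 TPM in controls. Gsta4, which conjugates the lipid peroxidation product hydroxynonenal, averaged 84.3 ± 11.3 TPM in nKO and 83.2 ± 14.01 TPM in controls. Mgst1, a membrane-bound transferase of the endoplasmic reticulum and outer mitochondrial membrane, averaged 16.3 ± 2.06 TPM in nKO and 14.8 ± 2.37 TPM in controls.

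Gstm1, a mu-class transferase (mouse chromosome 3, 108012250 to 108017973 in GRCm38), spread widely among the controls. It had 200.3, 215, 227, 205 and 204 TPM in nKO 1 to 5, against 111, 138, 49.2, 211 and 218 TPM in control 1 to 5. Controls 4 and 5 lay inside the nKO range, and controls 1, 2 and 3 lay below every other library. The difference between the groups, 0.47 on the log2 scale (SE 0.32), had a 95% interval of -0.23 to 1.17 and did not pass the test (edgeR unadjusted p = 0.167, adjusted p = 0.845). Without control 3 it was 0.24, and without control 5 it was 0.65. Gstm1 shares long stretches with its neighbouring paralogs, so the division of reads among them is uncertain. The sum of the 6 other listed Gstm genes was 434, 444, 433, 481 and 484 TPM in nKO 1 to 5, against 399.9, 469, 527, 476 and 476 TPM in control 1 to 5. Gstm1 and that sum therefore had different library orders, and the sum of all 7 was 634 to 688 TPM in nKO and 511 to 694 TPM in controls, with the 3 lowest values in controls 1, 2 and 3.

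**Figure D2:**
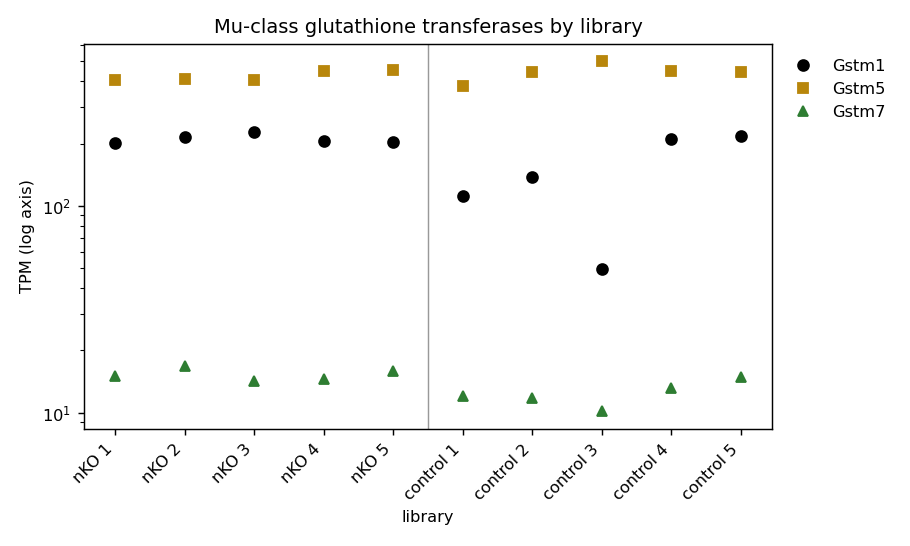
TPM (log axis) of Gstm1 and of the paralogs Gstm5 and Gstm7 in each library, 1 point per library. Gstm1 is at 200.3 to 227 TPM in the 5 nKO libraries and at 111, 138 and 49.2 TPM in controls 1, 2 and 3, while Gstm5 is at 378 to 498 TPM in all 5 controls.

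Whether the mitochondrial members moved apart from the cytosolic members was read from the 6 genes of the matrix and the 17 of the cytosol, assigned from the textbook location of the main protein product. Of the 6 mitochondrial genes 5 had negative log2 fold changes, with a median of -0.06, and of the 17 cytosolic genes 12 did, with a median of -0.03. The difference of these medians was -0.04. With a library left out it ran from -0.06 (without nKO 5) to 0.0009 (without nKO 2), and without nKO 4 and control 1 it was -0.007. The 4 genes whose products serve both compartments (Gpx1, Gpx4, Gsr and Prdx5) were all negative with a median of -0.23. Without nKO 4 and control 1 they were at 0.04, -0.10, -0.10 and 0.02 in that order. The 8 others, among them the regulators and Cat, had a median of 0.04 with 3 negative in all libraries. At an unadjusted p under 0.05 there were 0 of 6 mitochondrial and 0 of 17 cytosolic genes, where 2.29% of all genes were lower and 3.36% higher. At such shares few or none are expected in sets of this size, so the counts do not tell the compartments apart. With effective lengths as offsets in the fit, the cytosolic Sod1 and Prdx1 had such a p and no mitochondrial gene did, where 4.19% of all genes were lower.

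Within a library, each mitochondrial gene was also divided by its cytosolic counterpart. The Sod2 to Sod1 ratio of TPM was 0.274, 0.239, 0.279, 0.290 and 0.304 in nKO 1 to 5, against 0.232, 0.227, 0.161, 0.289 and 0.289 in control 1 to 5. Control 3 had the lowest ratio, with the highest Sod1 and the lowest Sod2 of all libraries. The mean log2 ratio was 0.24 higher in nKO (exact two-sided permutation test over libraries, p = 0.198, 0.331 after adjustment over the 5 pairs), and 0.10 higher without control 3. The Prdx3 to Prdx1 ratio averaged 0.509 in nKO and 0.489 in controls, a difference of 0.06 on the log2 scale (exact permutation p = 0.198, adjusted 0.331). It was 0.03 without nKO 4 and likewise without control 2, and 0.08 without nKO 2 (exact permutation p = 0.0476, adjusted 0.238).

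The Txn2 to Txn1 ratio averaged 0.605 in nKO and 0.650 in controls, a log2 difference of -0.10 (exact permutation p = 0.460, adjusted 0.575). Without control 3 it was -0.02, without control 1 -0.05, without nKO 5 -0.05 and without control 2 -0.18. The Txnrd2 to Txnrd1 ratio averaged 0.294 in nKO and 0.335 in controls, a log2 difference of -0.19 (exact permutation p = 0.183, adjusted 0.331), and -0.11 without control 3. The Glrx2 to Glrx ratio averaged 0.660 in nKO and 0.649 in controls, a log2 difference of 0.02 (exact permutation p = 0.611, adjusted 0.611). No pair passed the test, 3 of the 5 differences were positive, and the smallest p that 5 libraries against 5 can give is 0.00794. For Txn2 to Txn1 and Txnrd2 to Txnrd1 the SD of the log2 ratio was 0.14 and 0.11 in nKO and 0.26 and 0.26 in controls, and controls 1 and 3 had the highest ratios in both pairs.

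**Figure D3:**
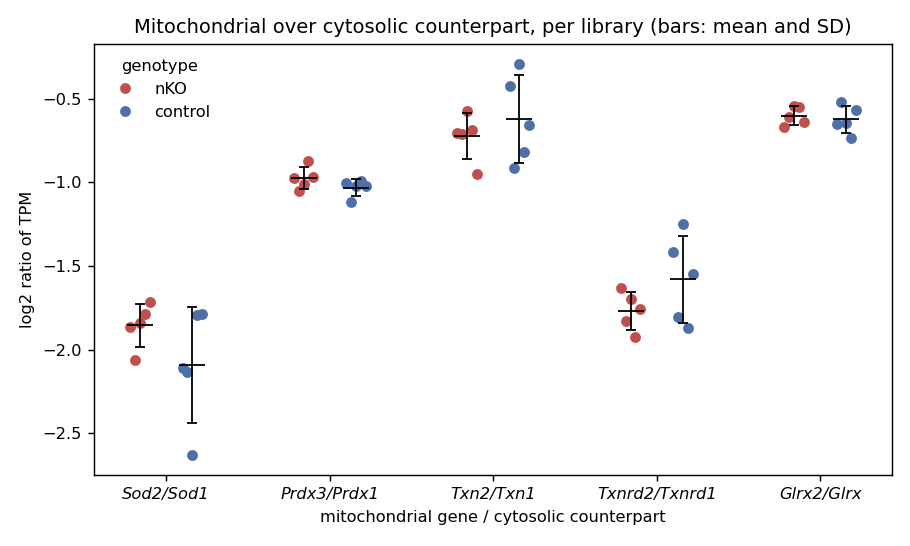
Log2 ratio of TPM of each mitochondrial gene over its cytosolic counterpart, 1 point per library, with mean and SD (n = 5 nKO and 5 control libraries). Ratios of nKO and control libraries overlap in all 5 pairs, and the lowest point of Sod2/Sod1 is control 3.

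Several of these enzymes have transcripts that direct them to different compartments, so transcript shares were examined as well. Which compartment the product of each transcript serves was not assessed. Of the 35 genes 15 had 2 or more listed transcripts. Gpx4 and Txnrd2 were among the 15 but lacked 2 transcripts at 10% or more of the gene, so they were not tested. In 5 genes (Keap1, Prdx2, Txnrd1, Glrx and Glrx2) at least 2 transcripts each made up 10% or more of the gene. Among their 12 transcript shares the smallest p was 0.111 (exact two-sided permutation test, adjusted 0.873 over the 12), and 0 had an unadjusted p under 0.05. That smallest p was for the Glrx2 transcript NM_001038594, at 30.8% ± 20.1 in nKO and 9.78% ± 14.2 in controls (SD, n = 5 each). Shares of near-identical transcripts were unsteady: the Keap1 transcript NM_001110307 ranged from 0% to 88.6% within nKO and from 0% to 73.3% within controls.

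Both libraries at the ends of the first principal component differed from the rest of their groups in step with the base composition of the transcripts. In nKO 4 minus the other nKO libraries (log2 CPM), members of high GC share were low and members of low GC share were high, with a Spearman rho of -0.88 over the 35 members and -0.73 over 13907 genes. In control 1 minus the other controls the order was the opposite, with rho 0.72 over the members and 0.71 over all genes. The other 8 libraries also varied with GC share, each against the rest of its group, which includes nKO 4 or control 1: over the members rho was 0.73, 0.72, 0.42 and -0.38 in nKO 1, 2, 3 and 5, and -0.51, -0.18, -0.51 and -0.27 in controls 2 to 5. Over all genes it was 0.42, 0.49, 0.43 and -0.23 in those nKO libraries, and -0.56, -0.52, -0.05 and 0.12 in those controls. These are descriptions without a test, since all points of a correlation share 1 library. For Prdx5, at 58.3% GC, the difference was -0.63 in nKO 4 and 0.64 in control 1. For Prdx1, at 42.3% GC, it was 0.15 in nKO 4 and -0.39 in control 1.

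**Figure D4:**
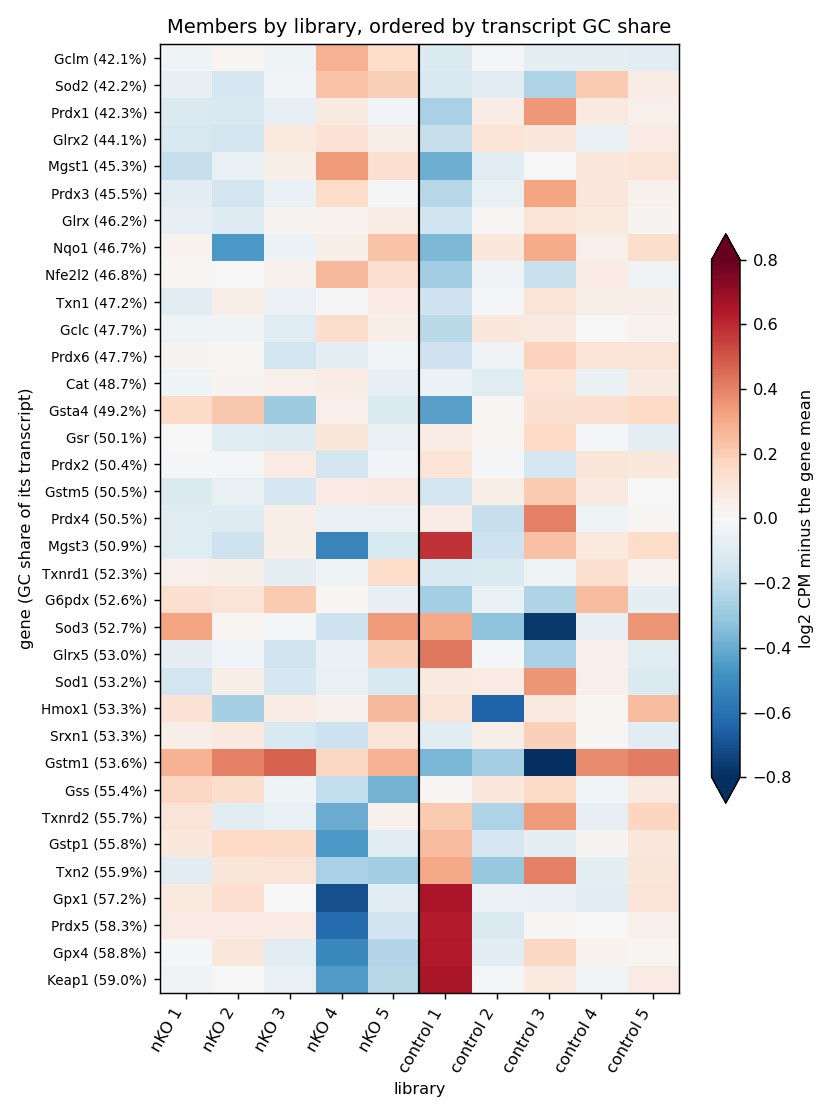
Log2 CPM of each member minus its mean over the 10 libraries, with genes ordered by the GC share of their transcript from 42.1% (Gclm) at the top to 59.0% (Keap1) at the bottom, and nKO libraries left of control libraries. The lowest 4 rows are blue in nKO 4 and red in control 1, and Gstm1 is blue in controls 1, 2 and 3; colours stop at 0.8 in either direction.

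The deposited effective lengths, which Salmon uses to turn counts into TPM, moved in the same libraries. That of Gpx1 was 554 bases in nKO 4, 866 bases in control 1 and 632 to 723 bases in the 8 other libraries. For Prdx1 it was 1437 bases in nKO 4, 1229 bases in control 1 and 1325 to 1377 bases in the 8 others. On the TPM scale the relation was weaker, with rho -0.65 in nKO 4 and 0.61 in control 1 over the members. In TPM, control 1 was the lowest library for 17 of the 35 members and control 3 the highest for 17. In CPM, control 1 was the lowest for 14 and the highest for 8, and control 3 the highest for 14. The same was not counted over all genes.

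**Figure D5:**
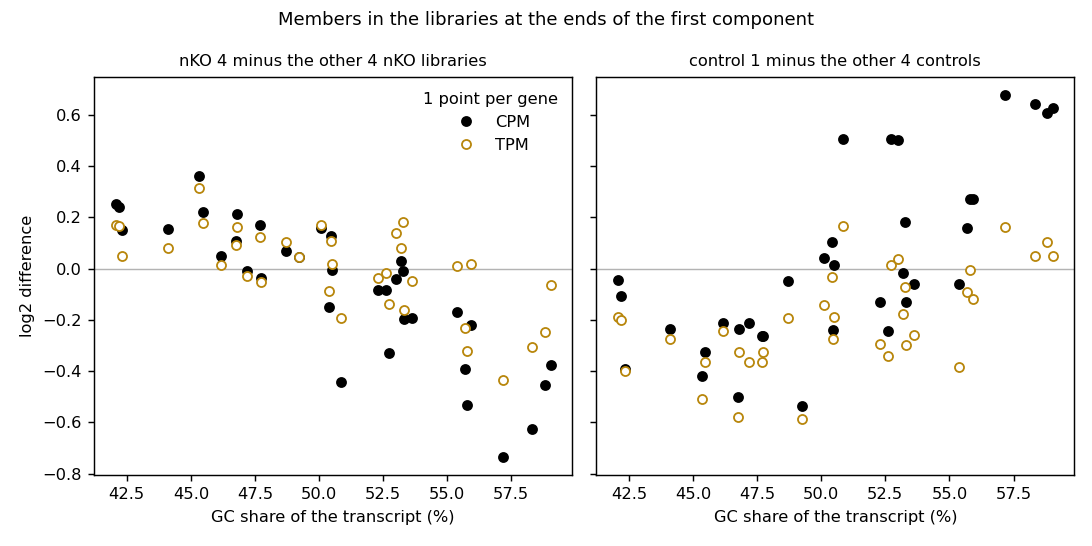
Difference of nKO 4 from the other 4 nKO libraries (left) and of control 1 from the other 4 controls (right) against the GC share of the transcript, on the log2 CPM scale (filled) and the log2 TPM scale (open), 1 point per member. The filled points fall with GC share in nKO 4 (rho -0.88) and climb with it in control 1 (rho 0.72).

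Fold changes were set beside GC share as well. All 8 members in the top GC quartile of the tested genes (Keap1, Gss, Gpx1, Gpx4, Prdx5, Txn2, Txnrd2 and Gstp1) were negative, with a median of -0.21, while the median of all genes in that quartile was -0.09. Without nKO 4 and control 1 the median of the 8 was -0.09, that of the 21 members in the middle range -0.07 and that of the 6 in the lowest quartile -0.08. In all libraries, of the 21 in the middle range 13 were negative with a median of -0.03, and of the 6 in the lowest quartile 3 were, with a median of 0.03. The members' transcripts were also short, with a median length of 1445 bases against 2994 bases over all tested genes, and over all genes the fold change climbed with length (rho 0.30). The median of the members was 0.0043 after subtracting the running median over genes of like length, and -0.05 after doing so over genes of like GC share. With effective lengths as offsets in the fit, 5 members had an unadjusted p under 0.05 and a negative fold change, against 4.19% of all genes, and 0 had a positive one, against 5.5% of all genes. They were Mgst3 at -0.32, Gpx4 at -0.24, Keap1 at -0.22, Sod1 at -0.19 and Prdx1 at -0.16. In that order the edgeR unadjusted p was 0.00522, 0.0136, 0.00766, 0.0306 and 0.0391. The smallest adjusted p of a member in that edgeR fit was 0.441, for Mgst3. Without nKO 4 and control 1 the only member with an unadjusted p under 0.05 was Prdx1, at -0.23 (edgeR adjusted p = 0.508).

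Beyond the members, further genes were listed for cystine and glutathione handling, other glutathione peroxidases and transferases, NADPH supply, thioredoxin-fold proteins and repair, and NRF2 targets and partners. There were 92 of them, of which 85 were tested. Of these 0 were called. Negative log2 fold changes were found for 57 (67.1%, against 52.2% of all tested genes) and positive ones for 28, and the median was -0.08. At an unadjusted p under 0.05, 7 of the 85 were negative, where 2.29% of all genes were, and 1 was positive, where 3.36% were. The 6 with the smallest p were all negative. Idh2, which supplies NADPH in the mitochondrial matrix, averaged 23.1 ± 2.31 CPM in nKO and 27.2 ± 1.16 CPM in controls (log2 fold change -0.24, SE 0.09, edgeR unadjusted p = 0.0182). Pgd, the next dehydrogenase after G6pdx in the pentose phosphate pathway, averaged 14.6 ± 1.43 CPM in nKO and 18.7 ± 4.26 CPM in controls (-0.35, SE 0.15). Gpx7, a peroxidase of the endoplasmic reticulum, was low, at 2.05 ± 0.263 CPM in nKO and 2.69 ± 0.0331 CPM in controls (-0.39, SE 0.15). Akr1a1, an aldehyde reductase, had a log2 fold change of -0.16, Txndc5, a disulfide isomerase, -0.19, and Msrb1, which repairs oxidised methionine, -0.27. The GC shares of these 6 transcripts were 52.6% to 55.5%, where the median of all genes was 50.2%.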

How the data were processed

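Cortex RNA was extracted with TRIZOL, treated with DNase and made into stranded total RNA libraries, per the labels' protocols. Salmon, bcl2fastq, DESeq2 and the build mm10 appear in the submitters' processing notes; their versions and the annotation release are not given in the sources used here. For each library the authors deposited estimated counts, TPM and effective lengths per gene and transcript, per the file headers. Salmon divides shared reads among similar transcripts, so paralogs and isoforms depend on that division. A deposited score table of 22 genes held no member and was not used.

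Estimated counts were rounded, filtered with filterByExpr (minimum count 10, total 15) and scaled by TMM. They were tested with edgeR 4.0.16 (quasi-likelihood, robust, R 4.3.3) over all 14378 genes, with Benjamini-Hochberg adjustment at 5%. Values are printed for the members, Atad3a and some further genes. Ratios of TPM (pseudocount 0.1) and transcript shares were tested by exact two-sided permutation over libraries. Each library was 1 animal; the labels give no pairing or batch, and replicate numbers only name libraries. Precision of low members is limited by their counts. The members, compartments, roles, further pathway genes and marker lists were chosen with earlier results of these data known. All members are named; values per library are given for the regulators, the 5 pairs, the highest and lowest members and those with an unadjusted p under 0.05, and other genes given per library were chosen after their values were seen. Positions and promoters came from RefSeq on GRCm38.p6, and GC shares from GENCODE transcripts of GRCm38, with 96.7% of tested genes matched. Tested on simulated counts of 14396 genes for nKO against control, the fit found 50 of 98 genes set to a 1.5-fold difference and 76 of 95 set to a 2-fold one, and made 10 false calls. The simulated libraries differed in depth but held no shifts with GC share or transcript length, which the real libraries did. Alternatives were other scalings, filters, tests (DESeq2 1.42.0, limma-voom 3.58.1), effective length offsets, transcript sums, libraries left out and corrections for transcript length and, added after seeing the data, GC share. The pair left out together, nKO 4 and control 1, was taken from these same data, as the ends of the first principal component.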

Additional observations from a re-analysis of the deposited data

Results flagged for a closer look

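Control 1 lay apart from the other 4 controls in 5 members. Its CPM was 61.5 for Keap1 (38.3 to 41.1 in the other controls), 45.3 for Gpx1 (26.9 to 30.8) and 129.6 for Prdx5 (77.0 to 86.1), all of high GC share, 57.2% to 59.0%. It was 58.8 for Gclc (68.6 to 72.3) and 20.2 for Gsta4 (27.7 to 30.7), of 47.7% and 49.2% GC. The log2 ratio of Prdx3 to Prdx1 was -1.12 in control 2, against -1.02 to -0.99 in the other controls. In each case the gap to the nearest library exceeded the critical share of the group's range (0.710 for 5 samples). Of 80 groups examined 6 were picked out, and chance does so in about 1 in 20.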

How the results depend on the processing

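Under every alternative tried, 0 of 35 members were called at 5%, and the smallest adjusted p of a member was 0.441 (edgeR with effective length offsets). Over all genes 5 were called with the DESeq2 Wald test, none a member, against 2 otherwise or 3 without nKO 1. Members with an unadjusted p under 0.05 numbered 3; they were 5 with effective length offsets and 1 without nKO 4 and control 1, and 1 to 4 with a library left out, the 1 being Mgst3 without nKO 4 and again without nKO 5. The median of the members was -0.05, and 0.0043 after subtracting the running median over genes of like length; it was -0.02 without control 3, -0.07 without control 2 and -0.09 without nKO 4 and control 1. Of 665 member fold changes under alternatives 45 reversed, and 21 of 35 members had none. No paired analysis was possible because the labels number no replicates within a group; replicates 1 to 5 were numbered here in the order of the samples and pair nothing.

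Without nKO 4 and control 1 the log2 fold change was -0.085 for Gclc, 0.044 for Gpx1, -0.0063 for Sod2, -0.028 for Cat, 0.020 for Prdx5, 0.059 for Glrx5, 0.091 for Gstp1 and -0.061 for Mgst1. Gclc was at -0.0049 with library size alone and -0.012 with effective length offsets, where Glrx5 was at 0.0083. Cat was at -0.00058 with DESeq2 size factors, -0.0067 with library size alone, -0.0025 with a CPM filter, -0.0016 with the DESeq2 Wald test and -0.0018 with transcript sums, and Gsta4 at 0.00051 with limma-voom. With a library left out the values ran from -0.075 to 0.15 for Hmox1, -0.040 to 0.031 for Gclc, -0.016 to 0.036 for Cat, -0.13 to 0.0093 for Prdx3, -0.058 to 0.0082 for Txn1, -0.056 to 0.021 for Srxn1, -0.057 to 0.018 for Glrx2, -0.13 to 0.059 for Glrx5, -0.10 to 0.035 for Gstp1, -0.094 to 0.059 for Gsta4, and -0.0045 to 0.048 for the Glrx2 to Glrx log2 ratio. The cause was not tested. Low counts limit Sod3, Hmox1 and Nqo1 most.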

Other observations

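The library order of Gstm1 recurred in genes on other chromosomes, which were looked for after the values of Gstm1 were seen. Over the 10 libraries and 13726 genes with a mean of at least 1 CPM, the genes with the highest Pearson r to Gstm1 were Pknox2 (0.990, chromosome 9), Fam122a (0.989, chromosome 19), Prr13 (0.988, chromosome 15), Csnk2b (0.987, chromosome 17), Ube2l3 (0.984, chromosome 16) and Fam210b (0.982, chromosome 2). Prr13 had 11.3, 14.5, 13.1, 12.7 and 11.7 CPM in nKO 1 to 5, against 8.82, 8.22, 2.87, 13.5 and 13.7 CPM in control 1 to 5. Csnk2b, the regulatory subunit of casein kinase 2, had 46.0, 53.6, 49.9, 42.4 and 51.1 CPM in nKO 1 to 5, against 34.7, 35.2, 19.4, 48.3 and 47.5 CPM in control 1 to 5. As in Gstm1, controls 1 to 3 were below every other library and control 3 was the lowest. The r values describe genes picked as the highest of 13726 and carry no p. The source of this library order was not tested.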
